A study of Mus musculus with 2 samples.

Results

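The genes described here encode interferon-induced antiviral effectors and the enzymes of ISGylation, 10 genes chosen by name from the 24015 genes of the expression table. They are the IFIT genes Ifit1, Ifit2 and Ifit3, the Mx genes Mx1 and Mx2, Rsad2 (viperin), Bst2 (tetherin), and the ISG15 system genes Isg15, Herc6 and Usp18. The source was mouse embryonic fibroblasts in culture, sequenced as poly(A)+ RNA in 1 library of genotype Adar2+/+ (labelled WT) and 1 of genotype Adar2-/- (labelled KO). ADAR2 deaminates adenosines within RNA duplexes, and the study compared expression and editing with and without it. No treatment with interferon or virus is named in the labels, and both cultures grew in the same serum-containing medium. The labels give neither the mouse strain, the number of embryos, the passage nor the deleted exon, and they name 2 library kits, TruSeq or Nextera, without saying which library was made with which.

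Values are RPKM, read counts scaled by gene length and library total, so that genes of different length can be compared. They rest on 9446911 reads in the library labelled WT and 9546997 in the library labelled KO, totals inferred here from the deposited values. Adarb1, the gene symbol of Adar2, had 18.4 RPKM in the library labelled WT and 25.8 RPKM in the library labelled KO, so the transcript level goes against the label. Since the deleted exon is not given, reads from the rest of the gene may remain. The authors' lists of edited sites held 654 sites in the library labelled WT and 110 in the library labelled KO, fewer where the label gives no ADAR2. Neither the Adarb1 level nor the site counts were tested as a check of the labels, and every direction below rests on the labels alone. With 1 library per genotype no difference has a replicate check and no p-value is given. All intervals are 95% intervals that cover counting error only. The fibroblast markers Col1a1 (49.98 and 57.1 RPKM) and Vim (82.7 and 81.0 RPKM) were abundant in both libraries, WT-labelled value first. Of the 10 markers in that list 8 were within 2-fold. Dcn was lower (29.7 and 12.3 RPKM) and Thy1 higher (9.40 and 72.1 RPKM) in the library labelled KO.

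Type I interferon, bound by its receptor, activates transcription factors, IRF9 among them, which bind a DNA motif called the interferon-stimulated response element in the promoters of many antiviral genes. IFIT proteins bind viral RNA, Mx proteins are large GTPases that trap viral components, viperin makes a chain-terminating nucleotide and tetherin holds budding virus particles on the cell surface. ISG15 is a ubiquitin-like protein that is joined to other proteins by an enzyme cascade, in mouse ending with the ligase HERC6, and USP18 removes it again and also dampens receptor signalling. Fibroblasts are a classical cell type for study of this response.

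Promoter sequence is shown first because many interferon-induced genes are known as targets of the same factors. Binding of such factors to the 10 genes was not measured here. The motif, which is GAAA, then any 2 bases, then GAAA, was searched on both strands of RefSeq promoters (build GRCm38.p6), 300 bases each, from 250 before to 50 after the annotated start. These sequences come from the reference genome and not from the cultures. Of the members, 7 were in that table with 8 promoters, and the motif was in 5 of the 8. Of all 32851 promoters in the table, 3.44% held it. In the stretches below, bases in capitals belong to a match, and each is printed 5′ to 3′ on the strand of its gene with 20 bases on either side of its matches.
Ifit1 (chr19:34640765-34640833, plus strand): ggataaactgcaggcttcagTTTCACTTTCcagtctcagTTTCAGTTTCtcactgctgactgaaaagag
Ifit3 (chr19:34583353-34583436, plus strand): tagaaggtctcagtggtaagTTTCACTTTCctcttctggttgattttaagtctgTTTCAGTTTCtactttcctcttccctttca
Isg15 (chr4:156200855-156200916, minus strand): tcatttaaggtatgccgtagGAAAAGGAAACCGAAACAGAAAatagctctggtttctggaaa
Bst2 (chr8:71537567-71537622, minus strand): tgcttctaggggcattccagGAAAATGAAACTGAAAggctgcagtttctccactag
Rsad2 (chr12:26456543-26456592, minus strand): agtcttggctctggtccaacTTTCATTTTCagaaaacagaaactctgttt

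Ifit1 and Ifit3 each held 2 separate matches on the reverse strand, which began 104 and 85 bases before the start in Ifit1 and 156 and 122 bases before it in Ifit3. Isg15 held 3 matches on the gene strand that overlap in a single run, the first 78 and the last 66 bases before the start. Bst2 held 2 overlapping matches on the gene strand, 130 and 124 bases before the start, and Rsad2 held 1 on the reverse strand at 120 bases. The letters of the motif were not in the promoter of Herc6 or in either promoter of Ifit2. A match is a string of letters and was not tested as a binding site.

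All 10 genes had the higher value in the library labelled WT, and all were at least 2-fold lower in the library labelled KO. The measure is log2((KO + 1)/(WT + 1)) of RPKM, with 1 RPKM added to each value, which understates the difference of low genes. Compared genes are the 13867 that reached 1 RPKM in either library, of which 7.46% were at least 2-fold lower on that scale and 4.42% at least 2-fold higher. The members' median was -2.73 and that of all compared genes 0.01. All 10 passed the minimum of 1 RPKM through their WT-labelled value, and 6 of them were under 1 RPKM in the library labelled KO. The library labelled WT held 5141 reads of the 10 genes together and the library labelled KO 818. In bulk RNA, fewer cells with the transcript and less transcript per cell cannot be told apart.

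**Figure D1:**
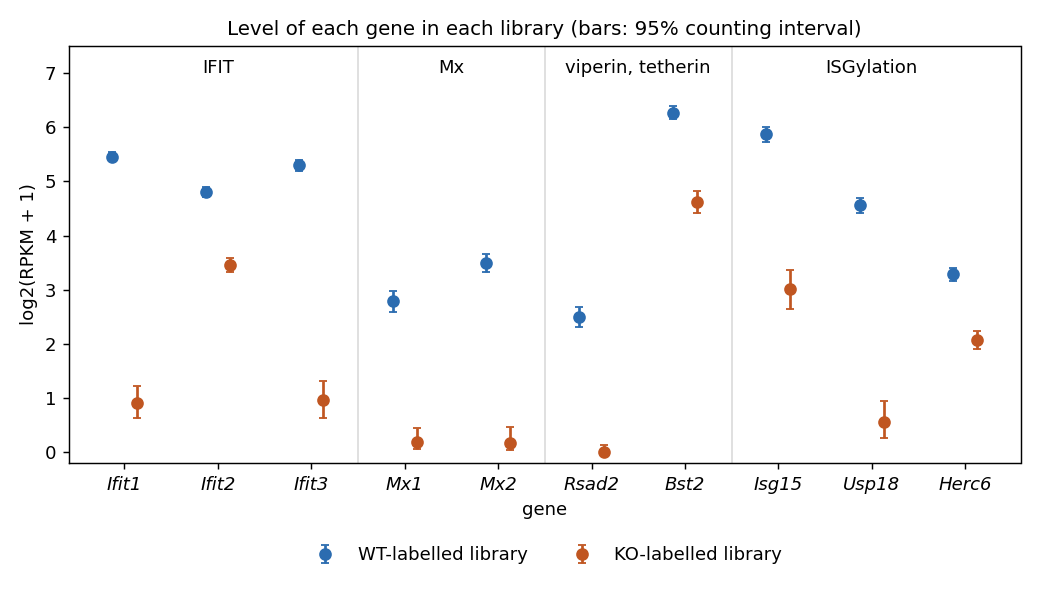
Level of each of the 10 genes as log2(RPKM + 1) on the vertical axis, with the library labelled WT in blue and the library labelled KO in orange, 1 library each; bars are 95% counting intervals. Every blue point lies above the orange point of the same gene, and the gap is smallest for Herc6 (log2 difference -1.21) and largest for Ifit1 (-4.55).

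IFIT proteins bind RNA through tetratricopeptide repeats, and IFIT1 is known for recognising capped viral RNA that lacks the methyl marks of host transcripts. Ifit1 had 42.9 RPKM (1068 reads) in the library labelled WT and 0.874 RPKM (22 reads) in the library labelled KO. Its log2 ratio of reads per total was -5.62 (interval -6.30 to -5.01), a 49.1-fold lower RPKM. Ifit3, whose product stabilises IFIT1 complexes, had 38.4 RPKM (724 reads) and 0.944 RPKM (18 reads). The log2 reads ratio of Ifit3 was -5.35 (interval -6.11 to -4.67). Ifit1 and Ifit3 thus stood close to each other in both libraries, with overlapping intervals of their levels.

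Ifit2, known for restricting neurotropic viruses and for promoting cell death, differed less between the libraries. It had 27.0 RPKM (1006 reads) in the library labelled WT and 10.0 RPKM (377 reads) in the library labelled KO. That is a log2 reads ratio of -1.43 (interval -1.61 to -1.26), whose interval does not meet those of Ifit1 and Ifit3. In the library labelled WT Ifit2 was below Ifit1 and Ifit3, and in the library labelled KO it was above both.

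The other IFIT genes of the locus on chromosome 19 gave the same direction. The Ifit3 paralog listed as I830012O16Rik (now Ifit3b) had 30.4 RPKM (579 reads) and 0.624 RPKM (12 reads). The Ifit1 relatives Gm14446 (now Ifit1bl1) and 2010002M12Rik (now Ifit1bl2) had 5.71 and 4.22 RPKM in the library labelled WT and 0.662 and 0.467 RPKM in the library labelled KO. All 3 were at least 2-fold lower on the scale of RPKM + 1. Reads of near copies are uncertain here: 51.2% of the 50-base windows of the longest protein-coding GENCODE Ifit3 transcript also occur in transcripts of Ifit3b, against 7.06% of Ifit1 windows in Ifit1bl2 and none of those of Ifit2 in any other gene. Added together, Ifit3 and its paralog had 1303 reads in the library labelled WT and 30 in the library labelled KO, a log2 ratio of -5.46 (interval -6.03 to -4.94), so a split of reads between them does not change the direction.

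Mx proteins are dynamin-like GTPases, and Mx1 is the classical influenza resistance gene of the mouse. RefSeq annotates both Mx1 and Mx2 as transcribed pseudogenes in the reference genome, and the alleles of these cultures are not given. Mx1 had 5.91 RPKM (166 reads) in the library labelled WT and 0.141 RPKM (4 reads) in the library labelled KO. Its log2 reads ratio was -5.39 with a wide interval of -7.28 to -4.01. Mx2 had 10.3 RPKM (236 reads) and 0.130 RPKM (3 reads), with a log2 reads ratio of -6.31 (interval -8.60 to -4.75). Both Mx genes were thus near the limit of detection in the library labelled KO, where their levels could not be told apart (counting intervals 0.038 to 0.361 and 0.027 to 0.379 RPKM). The 2 genes share few 50-base windows, 4.77% of those of Mx1 and 6.71% of those of Mx2.

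Rsad2 encodes viperin, a radical SAM enzyme that converts CTP to a nucleotide that stops viral RNA synthesis. It was the least abundant of the 10 in the library labelled WT, at 4.67 RPKM (167 reads), and had no read in the library labelled KO. With 3 reads put in place of 0 there, or 0.083 RPKM, Rsad2 was 56.3-fold lower. Its counting interval, which also covers error in the WT-labelled count, gave a weaker bound. By that interval Rsad2 was at least 45.2-fold lower, a log2 reads ratio of -5.50 or below. Cmpk2, its neighbour on chromosome 12, encodes a mitochondrial kinase that supplies CTP. Cmpk2 stood at 11.2 RPKM (337 reads) and 0.230 RPKM (7 reads), so both genes of this pair were close to the limit of detection in the library labelled KO.

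Bst2 encodes tetherin, a membrane protein anchored at both ends. It was the most abundant of the 10 in both libraries, with 75.9 RPKM (549 reads) in the library labelled WT and 23.7 RPKM (173 reads) in the library labelled KO. Its log2 reads ratio was -1.68 (interval -1.94 to -1.43), a 3.21-fold lower RPKM. At 0.717 reads per base in the library labelled WT Bst2 lay nearest, among the 10, to the highest value of any gene there, 1.01 reads per base. Isg15 came next among the 10, at 0.544 reads per base. Whether a ceiling on the values lowered those of Bst2 or Isg15 was not tested.

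The modifier itself, Isg15, had 57.5 RPKM (411 reads) in the library labelled WT and 7.07 RPKM (51 reads) in the library labelled KO. Its log2 reads ratio of -3.03 (interval -3.48 to -2.60) lay between the strongly and the weakly different genes, and its interval met none of the other 9. Usp18, which encodes the protease that removes ISG15, had 22.6 RPKM (378 reads) and 0.473 RPKM (8 reads), a log2 reads ratio of -5.58 (interval -6.80 to -4.58). Herc6, the ligase, had 8.74 RPKM (436 reads) and 3.21 RPKM (162 reads), a log2 reads ratio of -1.44 (interval -1.71 to -1.18). The modifier, the ligase and the protease were therefore lower by unequal factors, 8.14-fold for Isg15, 2.72-fold for Herc6 and 47.8-fold for Usp18 in RPKM. For Herc6, 23.8% of 50-base windows also occur in Gm45193, a gene the table does not list.

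**Figure D2:**
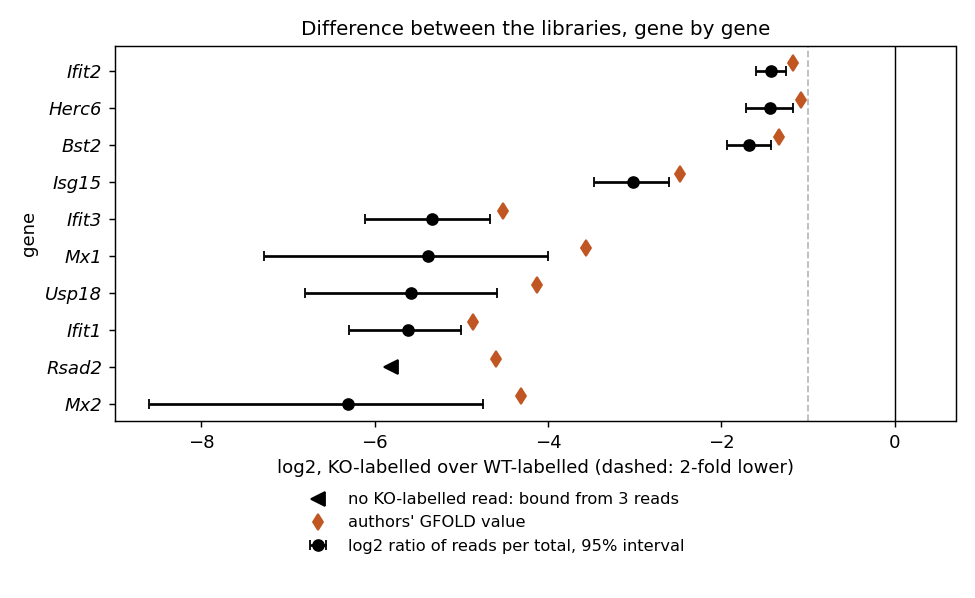
Log2 ratio of reads per library total, KO-labelled over WT-labelled, for each gene (black, bars are 95% counting intervals). The triangle for Rsad2 was computed with 3 reads in place of 0 in the library labelled KO. Orange marks the GFOLD value of the authors' deposited table. Ifit2, Herc6 and Bst2 lie between -1.68 and -1.43, Isg15 at -3.03 and the other 6 at -5.35 or below.

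By their counting intervals the 10 genes formed 3 steps. Ifit2, Herc6 and Bst2 had intervals wholly between -3 and -1, and 6 genes (Ifit1, Ifit3, Mx1, Mx2, Rsad2 and Usp18) had intervals wholly below -3. Isg15 crossed -3. The steps were seen after the values were known, and with 1 library per genotype they describe these libraries. Whether a ceiling narrowed the differences of Bst2 and Isg15 was not tested. The shrunken GFOLD values in the authors' deposited table keep all 10 genes below -1, from -1.08 for Herc6 to -4.86 for Ifit1. By GFOLD value 777 of all compared genes were at least 2-fold lower and 445 at least 2-fold higher.

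The order of levels changed between the libraries. In the library labelled WT it ran Bst2, Isg15, Ifit1, Ifit3, Ifit2, Usp18, Mx2, Herc6, Mx1, Rsad2. Counting intervals of neighbours in that order overlapped for Ifit1 with Ifit3, Mx2 with Herc6 and Mx1 with Rsad2, and for no other neighbours. In the library labelled KO the order was Bst2, Ifit2, Isg15, Herc6, Ifit3, Ifit1, Usp18, Mx1, Mx2, Rsad2. There the intervals overlapped for Ifit2 with Isg15 and for each neighbouring pair from Ifit3 to Rsad2.

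Set among all genes, all 10 were above the gene median of 3.06 RPKM in the library labelled WT, and 4 of them (Bst2, Ifit2, Isg15 and Herc6) were above the median of 2.58 RPKM in the library labelled KO. Bst2 ranked 132 of 24015 genes in the library labelled WT and 5825 in the library labelled KO. Ifit1 went from rank 1962 to 13216. Of the 13867 compared genes, 14 had a log2 ratio of RPKM + 1 as low as that of Ifit1 or lower, and 789 one as low as that of Herc6. The 10 genes thus ranged from the extreme lower end to a difference that 5.69% of compared genes reached.

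**Figure D3:**
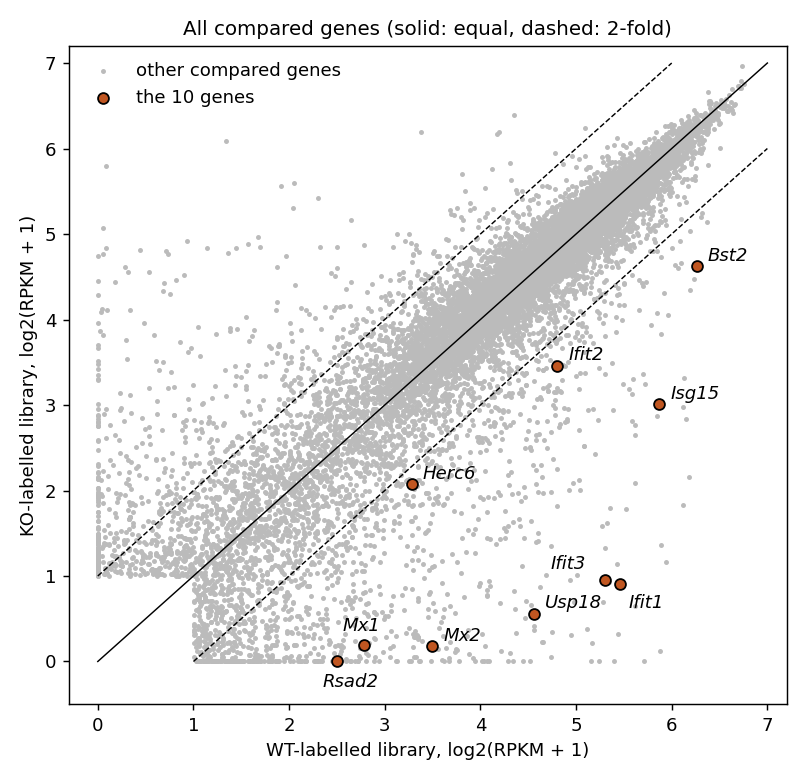
Level in the library labelled KO against that in the library labelled WT, both as log2(RPKM + 1), for the 13867 compared genes (grey) and the 10 genes (orange); the solid line marks equal levels and the dashed lines 2-fold differences. All 10 lie below the lower dashed line, with Rsad2 at 0 in the library labelled KO and Bst2 highest in both.

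A list of further genes of ISG15 conjugation, which also holds related ubiquitin ligase and protease genes, went 2 ways. Of the 12 listed and compared, 4 were at least 2-fold lower, none higher and 8 within 2-fold, with a median log2 ratio of RPKM + 1 of 0.0047. The 4 were Trim25, Herc3, Uba7 and Ube2l6. The 8 within 2-fold were Arih1, other HERC genes and ubiquitin protease genes, so the median mostly describes those. Uba7 encodes the ISG15-activating enzyme and had 9.81 and 2.92 RPKM, WT-labelled value first. Ube2l6, the conjugating enzyme, had 32.4 and 14.1 RPKM. Thus the activating enzyme, the conjugating enzyme, the ligase and the modifier had the lower value in the library labelled KO alike.

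Trim25, a ligase that also acts with the RNA sensor RIG-I, had 15.8 RPKM (831 reads) and 0.697 RPKM (37 reads). Herc3, a relative of Herc6, had 9.16 and 1.28 RPKM. The general ligase gene Arih1 (35.8 and 39.2 RPKM) and the large HERC genes Herc1 (8.03 and 10.9 RPKM) and Herc2 (12.04 and 12.9 RPKM) were within 2-fold. So were the ubiquitin protease genes Usp5, Usp13, Usp14 and Usp21, with log2 ratios of RPKM + 1 from -0.09 to 0.39.

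Among 24 compared genes of a list of other interferon-induced effectors, 15 were at least 2-fold lower and none higher (median -1.30). Its lowest were Ifi44 (42.5 and 0.252 RPKM) and Cmpk2, and its highest Isg20 (14.9 and 17.6 RPKM), an exonuclease gene, and Zc3hav1 (30.6 and 34.2 RPKM), which encodes the zinc finger antiviral protein ZAP. Among the genes of the IFITM membrane proteins, which block virus entry, Ifitm1 had 29.2 and 13.1 RPKM, Ifitm2 had 88.8 and 79.5 RPKM and Ifitm3 had 94.9 and 85.8 RPKM. At 0.839 and 0.897 reads per base in the library labelled WT, Ifitm2 and Ifitm3 lay nearer than Bst2 to the highest value there, 1.01 reads per base, and whether a ceiling narrowed their differences was not tested. The 3 IFITM genes were singled out after their values were seen, as were Ifi44l and Epsti1, the 2 listed genes under the minimum in both libraries.

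Upstream of the 10 genes, transcripts of interferons were at the limit of detection in both libraries. Of 18 listed interferon genes, Ifnb1 and the Ifna genes among them, 15 had no read in either library, and the whole list held 4 reads in the library labelled WT and none in the library labelled KO. Of the 12 receptor and signalling genes, 3 were at least 2-fold lower and none higher (median -0.25). Irf7 (39.1 and 2.08 RPKM) and Irf9 (33.4 and 14.1 RPKM), which are themselves interferon-induced, were among the lower genes. The receptor genes Ifnar1 (25.0 and 21.2 RPKM) and Ifnar2 (30.2 and 24.8 RPKM) and the kinase genes Jak1 (59.0 and 50.2 RPKM) and Tyk2 (20.1 and 17.6 RPKM) were within 2-fold. Irf3 was close to equal (19.8 and 19.5 RPKM), and Irf1 had the higher value in the library labelled KO (12.6 and 16.3 RPKM).

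**Figure D4:**
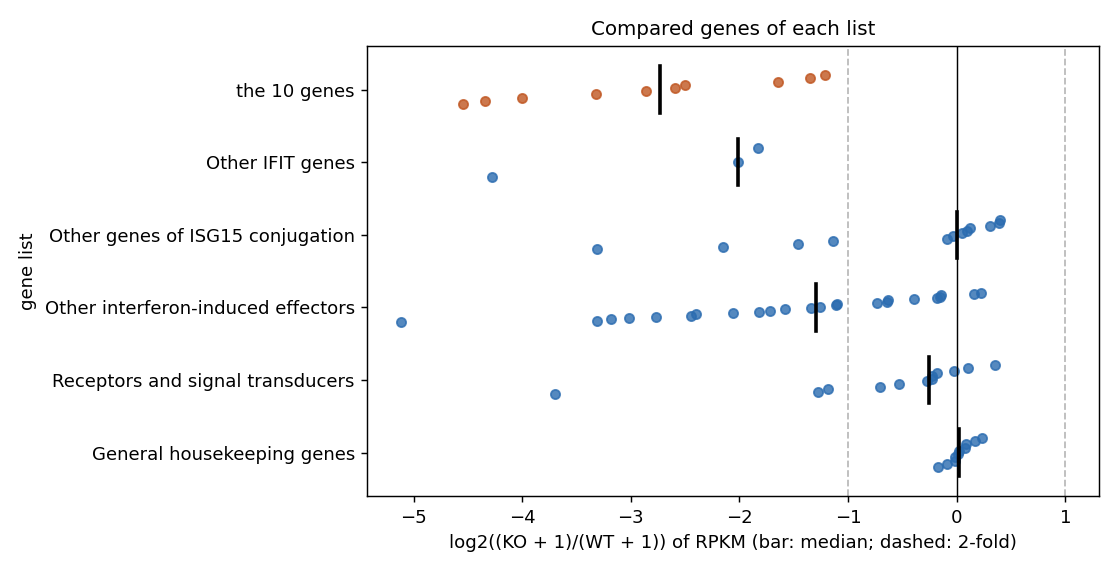
Log2 ratio of RPKM + 1, KO-labelled over WT-labelled, for each compared gene of the 10 and of 5 other lists; black bars are medians and dashed lines mark 2-fold. The list named for ISG15 conjugation also holds related ubiquitin ligase and protease genes. The 10 genes have a median of -2.73, other interferon-induced effectors -1.30, receptors and signal transducers -0.25 and housekeeping genes 0.02.

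All 10 genes of a housekeeping list were within 2-fold, with a median log2 ratio of 0.02 and the lowest ratio at Gusb (48.1 and 42.7 RPKM). Markers of immune cells, which respond strongly to interferon, differed in level by list. The 5 dendritic cell markers summed to 0.319 RPKM in the library labelled WT and were all listed at 0 in the library labelled KO, and Siglech, which marks plasmacytoid dendritic cells, had no read in either. The 5 lymphocyte markers summed to 0.195 and 0.145 RPKM. Of 8 listed macrophage and monocyte markers, Emr1 had no read in either library and Ptprc had 4 and 0 reads, while Csf1r had 1.75 and 0.081 RPKM. The macrophage sums, 32.9 and 34.9 RPKM, were made up mostly of Cd14 (19.7 and 23.7 RPKM), Lyz2 (5.91 and 3.67 RPKM) and Cd68 (5.15 and 7.40 RPKM), each above the gene median of its library.

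Sums of 5 endothelial and 5 epithelial markers were also lower in the library labelled KO, at 3.998 and 0.409 RPKM and at 2.35 and 1.43 RPKM. The endothelial marker Tie1 was at 0 in both libraries, and Tek had 2.39 and 0.134 RPKM. Of the epithelial markers, Cdh1 had 1.80 and 0.071 RPKM and Krt8 had 0.059 and 1.04 RPKM. Within the fibroblast list of 10 genes, Dcn was at least 2-fold lower (29.7 and 12.3 RPKM), Thy1 at least 2-fold higher (9.40 and 72.1 RPKM) and 8 were within 2-fold. The part of these marker differences in the values of the 10 genes was not tested.

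Position on the chromosome was examined with the 3 nearest genes on each side of each member by RefSeq gene order, counting protein-coding genes and the members themselves, so that Mx1 and Mx2 each hold a place beside the other. These neighbours are named by position, a rule set after the values were seen. Leaving out members and listed interferon genes, 41 neighbours remained, of which 29 were compared. Of these, 4 were at least 2-fold lower, 2 at least 2-fold higher and 23 within 2-fold, with a median of -0.11. Both shares past 2-fold were larger than those of all compared genes (7.46% lower and 4.42% higher), on few genes.

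Around Isg15 on chromosome 4 and Bst2 on chromosome 8, each compared neighbour was within 2-fold, as in Agrn (46.4 and 28.4 RPKM) and Perm1 (2.62 and 2.97 RPKM) beside Isg15 and Plvap (2.21 and 3.38 RPKM) and Mvb12a (16.3 and 14.5 RPKM) beside Bst2. The IFIT block on chromosome 19 lay between Lipa (45.9 and 40.6 RPKM), a lysosomal lipase gene, and Pank1 (10.99 and 9.49 RPKM). Ch25h, on the far side of Lipa, is itself interferon-induced and had 22.9 and 1.63 RPKM. Slc16a12, between Ifit1 and Pank1, was under the minimum in both libraries and not compared, but was also lower in the library labelled KO. It had 0.711 RPKM (26 reads) and 0.027 RPKM (1 read).

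Rsad2 on chromosome 12 had a different setting, since genes on both sides differed. Rnf144a had 23.4 and 1.66 RPKM and Id2, a transcription regulator gene, 42.8 and 17.0 RPKM. Sox11, a developmental transcription factor gene beyond Cmpk2, went the other way, from 0.0125 RPKM in the library labelled WT to 13.5 RPKM in the library labelled KO. Bace2 beside Mx1 on chromosome 16 (3.20 and 0.308 RPKM) and Tuba8 beside Usp18 on chromosome 6 (2.07 and 0.512 RPKM) completed the 4 lower neighbours, and Slc6a12 near Usp18 was the other higher one (0.207 and 1.68 RPKM).

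**Figure D5:**
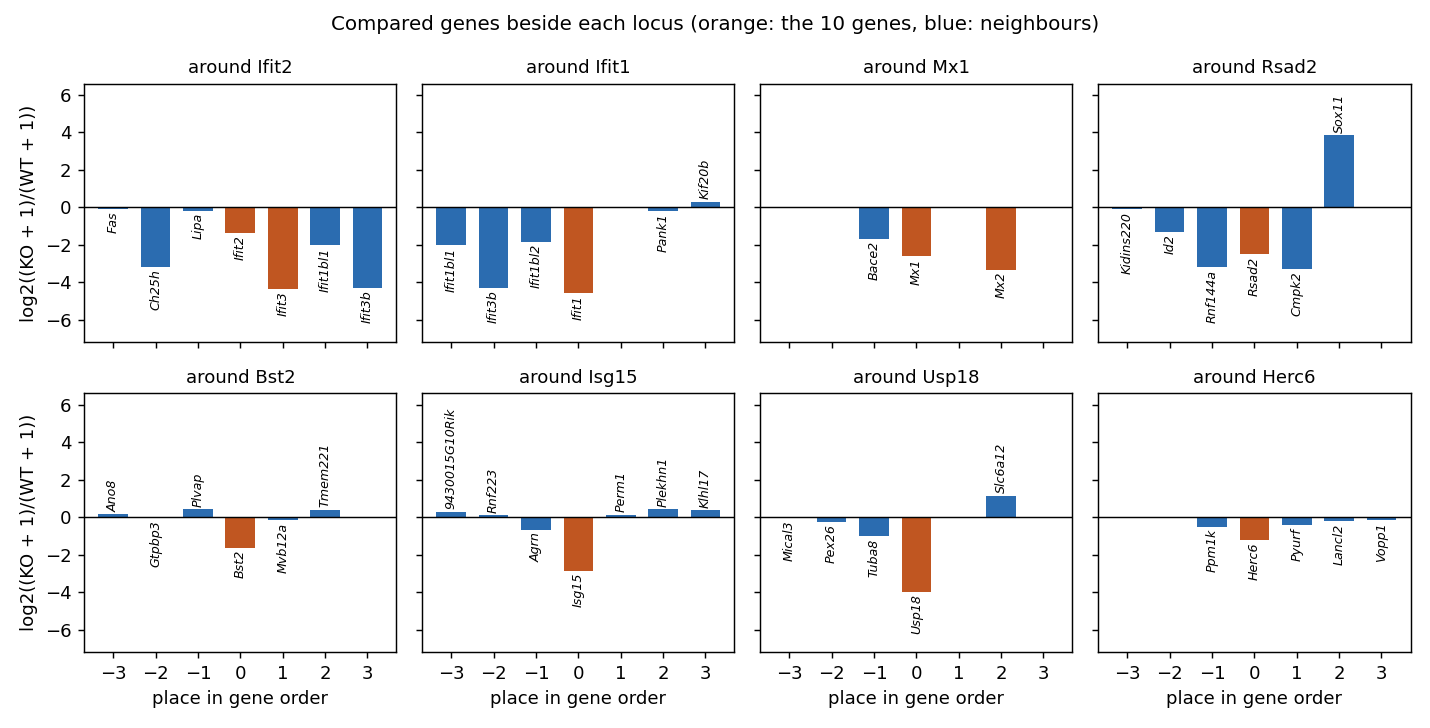
Log2 ratio of RPKM + 1, KO-labelled over WT-labelled, by place in gene order around 8 of the members (place 0), for compared genes only; orange bars are members and blue bars other genes, and an empty place is a gene under 1 RPKM in both libraries. Around Isg15, Bst2 and Herc6 no blue bar passes 2-fold, and around Rsad2 bars pass it in both directions.

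Over all compared genes whose symbol is in the promoter table, those with the motif in a promoter were at least 2-fold lower in 13.7% of cases (51 of 373) and those without it in 6.21% (597 of 9607). Without the members the first share was 12.5% (46 of 368). The shares at least 2-fold higher were 2.95% and 3.31%. Most genes with the motif were thus within 2-fold, and their median log2 ratio was -0.03. Of the 7 members with a promoter entry, Herc6 and Ifit2, where the motif was not found, had the smallest differences in log2 ratio of RPKM + 1 (-1.21 and -1.35). The 5 members with it ran from -1.64 for Bst2 to -4.55 for Ifit1. The counting interval of Bst2 on the scale of reads (-1.94 to -1.43) overlapped those of Ifit2 and Herc6. This order was seen after the values were known and rests on 7 genes. Whether the motif bears on any of these differences was not tested.

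The genes nearest to the members' median in log2 ratio, among those within 1.5-fold of their median WT-labelled level of 24.8 RPKM, were Nkd2, Frmd5, Edil3, Lgr6 and Ptgir. Their log2 ratios of RPKM + 1 ran from -2.76 for Ptgir (25.7 and 2.95 RPKM) to -2.70 for Lgr6 (18.5 and 1.99 RPKM). This likeness is over 2 libraries.

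No edited site was listed in any of the 10 genes, or in the other IFIT genes, among the 654 sites of the library labelled WT and the 110 of the library labelled KO. With so few sites over 24015 genes, most genes hold none, so their absence does not set these 10 genes apart. The lists hold sites with at least 2 edited reads, and the depth over unlisted positions is not given, so editing of these transcripts below that limit was not detectable. In the library labelled KO the 6 members under 1 RPKM had 22 reads or fewer over the whole gene. Listed sites there had a median of 14 reads, so for these 6 genes the absence of a site in that library carries no information.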

How the data were processed

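The authors deposited 1 table with an RPKM column for each library, a log2 fold change and a GFOLD value (a shrunken log2 fold change), per the file headers. A further deposited column of empirical false discovery rates, a kind of q-value, is 1 for all 24015 genes and was not used. Per the submitters' processing notes, STAR 2.4.0d, SAMtools and build mm9 were used; the sources used here do not give the annotation, the counting rule or the use of strand. The deposited editing lists give, per the file headers, counts of reads and of mismatches at each site and the editing level as a fraction.

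Whole reads were recovered from the RPKM values and the fold changes, which equal log2 of reads plus 1 with a constant of 0.0371 added. The library totals were inferred first, as those that gave whole-number gene lengths for genes at 0 in 1 library. For 17109 of 17981 genes above 0 (95.2%), all 10 members among them, exactly 1 pair of whole numbers matched the deposited values to their 6 digits. Clopper-Pearson intervals, conditional on the sum, were computed for ratios of reads per total and exact Poisson intervals for levels (scipy 1.17.1, Python 3.11.15). The recovery was tested on simulated data. Log2 ratios used a pseudocount of 1 RPKM and a minimum of 1 RPKM in a library. Members, lists and settings were chosen with earlier results of these data known. Genes of context lists of 12 or fewer were all eligible for naming; of longer lists the 2 highest and 2 lowest, with Ifitm1, Ifitm2, Ifitm3, Ch25h, Ifi44l, Epsti1 and the neighbours named after their values were seen. Alternatives were other pseudocounts, minimums and scalings, the authors' fold changes, the recovered reads, a shorter motif and the bases before the start alone. Values of some single genes of the context lists are not reported here.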

Additional observations from a re-analysis of the deposited data

How the results depend on the processing

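Under each of the 9 alternatives for the log2 ratio each compared member was at least 2-fold lower in the library labelled KO; with a minimum of 5 RPKM, 9 were compared, since Rsad2 did not reach it. The members' median, -2.73, depended on how low values are treated. It was -4.92 with a pseudocount of 0.1 RPKM, -5.27 from recovered reads per total with 0.5 reads added, -5.12 by the authors' deposited log2 fold change and -3.85 by their GFOLD value. A pseudocount of 1 RPKM limits the ratio of genes under 1 RPKM in the library labelled KO, as Rsad2 shows, with log2 ratios from -8.40 to -2.50 over the alternatives, against -1.43 to -1.18 for Ifit2. Over all compared genes, 1035 were at least 2-fold lower and 613 higher in the main setting. Those counts were 777 and 445 by GFOLD value and 1306 and 854 from recovered reads. A minimum of 5 RPKM left 659 lower and 353 higher, from fewer genes. The share of promoters with the motif was 8.56% for the shorter GAAANNGAA and 2.98% for the bases before the start only; with either, 5 of the members' 8 promoters held it. Ranks in place of RPKM keep the order of levels by construction and were not run as an alternative. Depth limits the KO-labelled values of Mx1, Mx2, Rsad2 and Usp18, which rest on 8 reads or fewer.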
